A study of Mus musculus with 5 samples.

Results

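The Prss genes encode serine proteases, enzymes that cut proteins with a serine in their active site and that are mostly made as inactive precursors. The family was taken as every row of the deposited table whose gene symbol is Prss followed by a digit, which gave 38 of 56324 rows, and no row had to be left out for carrying several symbols or a pseudogene name. Several members are made almost only in the testis, where they sit in the acrosome, the secretory vesicle at the sperm head, or are anchored on the germ cell surface. Others belong to quite different places, such as trypsinogens of the pancreas, mast cell and neutrophil proteases, prostasin of epithelia and proteases of the uterus. Mice that lack certain testis members make sperm that cannot enter the oviduct, because the sperm surface protein ADAM3 is not matured.

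The libraries came from purified germ cells of male C57Bl/6 mice aged 12 weeks, with no treatment or mutation named, and comprised 3 samples of spermatids, the haploid cells that build the acrosome and tail, and 2 samples of spermatocytes, the cells in meiosis. Both fractions were separated mainly by size, by sedimentation at unit gravity, so each is enriched rather than pure. Values are normalized counts, which the authors made by dividing reads by 1 size factor for each library, and 1 read was worth 0.671 to 1.55 of these units. Nothing in the labels ties the samples to separate mice, and p-values therefore measure a spread that may be technical. In such bulk samples, fewer cells of a type and less RNA per cell cannot be told apart.

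The labelled cell types were checked against marker genes. Over all tested genes 40.6% were called higher and 36.5% lower in spermatids, so a call of a single marker is common here. All 10 spermatid markers were higher in spermatids, the most abundant being Prm2, a protamine, and Tnp2, a transition protein. Of 10 spermatocyte markers 7 were lower in spermatids, Piwil1 among them, and 1, Tbpl1, was higher. The spermatocyte libraries also held Sertoli cell transcripts: 14 of 14 Sertoli markers, led by Clu and Ctsl, were lower in spermatids, and their summed normalized count was 2528 to 3681 in spermatids and 71226 to 92546 in spermatocytes. All 9 tested Leydig cell markers, with Cyp17a1 and Nr5a1 the most abundant, were lower in spermatids too, with summed normalized counts of 268 to 490.5 in spermatids and 3545 to 4340 in spermatocytes. Of 15 tested markers of myoid, endothelial and blood cells, 11 were higher in spermatids and 1 lower, with summed normalized counts of 2588 to 4473 in spermatids and 737.6 to 760.5 in spermatocytes. Recovered reads numbered 52784231 to 84361908 per library.

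Of the 38 Prss genes, 27 had a mean of at least 10 over the 5 libraries and were tested together with all other genes. Among these, 13 were higher in spermatids, 6 were lower and 8 did not pass the threshold (limma, Benjamini-Hochberg adjusted p under 0.05 over 28370 genes). The share called was 77.1% over all genes, 40.6% higher and 36.5% lower in spermatids, so calls alone are common in this comparison. Among tested members 48.1% were higher and 22.2% lower. Fold changes are of normalized count + 1 on the log2 scale, spermatids over spermatocytes, and understate the change of low genes. The median of the 27 members was 0.73, against 0.07 for all tested genes. Spermatid and spermatocyte libraries were fully apart in 21 members, 77.8% of those tested, against 85.8% of all genes. Differences of at least 16-fold (a log2 fold change of at least 4) were found toward spermatids for 8 of 27 members, 29.6%, against 14.4% of all genes.

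**Figure D1:**
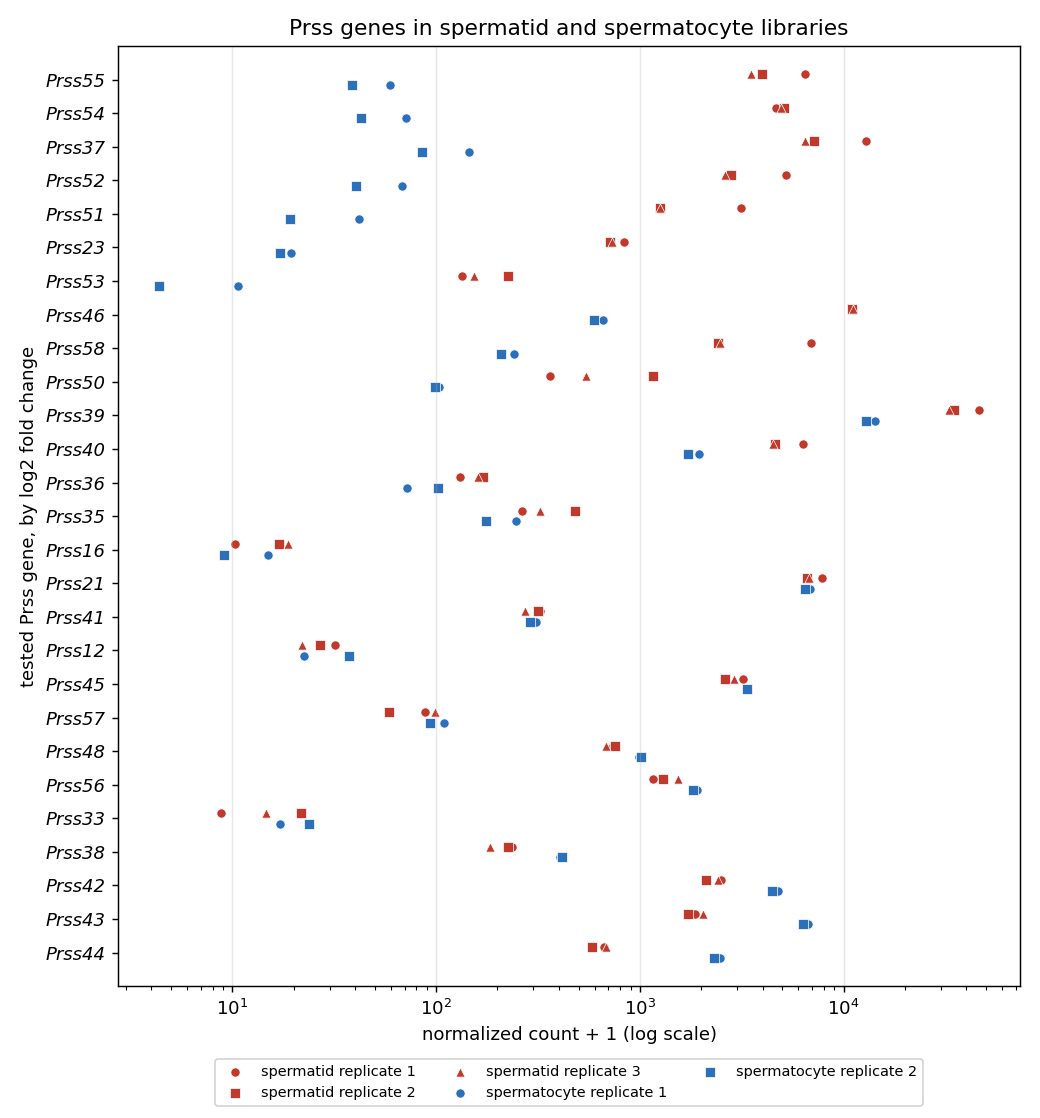
Normalized count + 1 on a log axis for the 27 tested Prss genes, one point per library, with spermatids in red above spermatocytes in blue and genes ordered by log2 fold change. The genes at the top differ by up to 6.55 on the log2 scale, while Prss39 has the highest normalized count in every library.

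Summed over the 38 genes, the family reached normalized counts of 123581, 92184 and 89408 in spermatid replicates 1, 2 and 3, and 45915 and 42566 in spermatocyte replicates 1 and 2. The totals over all rows were larger in spermatids as well. They were 96511989, 83611275 and 80600836 in spermatid replicates 1, 2 and 3, and 56855924 and 53899393 in spermatocyte replicates 1 and 2. Prss39 alone made up 37.0% to 37.7% of the family's sum in spermatids and 30.1% to 31.2% in spermatocytes. It encodes a protease of the acrosome, also called testicular serine protease 1, and its row lies on chromosome 1 from 34498430 to 34503062 (mm10, plus strand). Its normalized counts were 46467, 34798 and 33069 in spermatids and 14333 and 12816 in spermatocytes. Every spermatid library was above both spermatocyte libraries, with a log2 fold change of 1.47 ± 0.16 (SE, limma adjusted p = 0.00015). Divided by the length of its annotated exons, the level of Prss39 was 28591 normalized counts per kilobase in spermatids and 10184 in spermatocytes, above all other members in both cell types.

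Prss40, testicular serine protease 2 of the acrosome, lies on the same chromosome from 34543975 to 34560958 on the minus strand. It was read at 6330, 4620 and 4506 in spermatids and at 1944 and 1729 in spermatocytes, a log2 fold change of 1.47 ± 0.17 (SE, limma adjusted p = 0.00019). The fold changes of these neighbours were nearly equal although per kilobase of annotated exon Prss40 had 2448 normalized counts in spermatids and 873 in spermatocytes, far below Prss39. Only 1 of the 1329 windows of 50 bases in Prss39 transcripts is also found in a transcript of another gene, which is Prss40. Prss40 shares 11.3% of its windows with other genes, mostly Cfc1, whose row overlaps it and had 41.3 ± 7.30 (SD, n = 3) in spermatids and 32.9 ± 11.4 (SD, n = 2) in spermatocytes.

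The most uneven members were a group of genes low in spermatocytes and abundant in spermatids. Prss37 has lost residues of the catalytic site, yet male mice need it for ADAM3 maturation and for sperm to reach the oviduct. It lies on chromosome 6 from 40514824 to 40519514 (minus strand) and had normalized counts of 12842, 7131 and 6434 in spermatids, against 144 and 83.8 in spermatocytes. The groups were far apart, with a log2 fold change of 6.24 ± 0.35 (SE, limma adjusted p = 7.1e-06). Prss54, another testis gene, was at 4634, 5117 and 4936 in spermatids and at 70.0 and 41.6 in spermatocytes. The log2 fold change of Prss54 reached 6.48 ± 0.22 (SE, limma adjusted p = 8.8e-07), and its spermatid libraries were close to each other. Its row is on chromosome 8 from 95559133 to 95575455 (minus strand).

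Prss55, Prss51 and Prss52 stand side by side on chromosome 14 between 64075438 and 64113753, and all were higher in spermatids. Prss55, a membrane-anchored protease, is like Prss37 needed for ADAM3 maturation and sperm migration in mice. Prss55 was at 6476, 3986 and 3500.4 in spermatids and 58.2 and 37.5 in spermatocytes, a log2 fold change of 6.55 ± 0.30 (SE, limma adjusted p = 3.1e-06), the largest of the family except without spermatid replicate 1, where Prss54 was at 6.51 and Prss55 at 6.29. Prss52 was at 5219, 2802 and 2627 in spermatids and 66.8 and 39.6 in spermatocytes, with a log2 fold change of 6.01 ± 0.35 (SE, limma adjusted p = 8.9e-06). Prss51 was at 3121, 1252 and 1256 in spermatids and 40.9 and 18.1 in spermatocytes, with a log2 fold change of 5.91 ± 0.49 (SE, limma adjusted p = 4.7e-05). In all of them spermatid replicate 1 was the highest library and spermatocyte replicate 2 the lowest. The named row that lies among them, 4930471C04Rik, was also higher in spermatids, at 458.8 ± 199 (SD, n = 3) against 6.51 ± 3.12 (SD, n = 2) in spermatocytes (limma adjusted p = 2.3e-05).

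Prss58, a trypsinogen-like gene on chromosome 6 from 40895262 to 40900389 (minus strand), had 6923, 2411 and 2475 in spermatids, against 239 and 207 in spermatocytes. Spermatid replicate 1 was well above the other spermatid libraries, and the log2 fold change was 3.95 ± 0.45 (SE, limma adjusted p = 0.00020). Of the neighbours of Prss58, Moxd2 did not pass the threshold, at 25.8 ± 8.53 (SD, n = 3) in spermatids and 34.3 ± 4.85 (SD, n = 2) in spermatocytes (limma adjusted p = 0.32), and 1700074P13Rik was higher in spermatids, at 29925 ± 8477 (SD, n = 3) in spermatids and 14281 ± 838 (SD, n = 2) in spermatocytes (log2 fold change 1.03 ± 0.21 SE, limma adjusted p = 0.0034).

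Spermatocyte values of these genes were a small part of the spermatid values. The spermatocyte mean was 1.03% of the spermatid mean for Prss55, 1.14% for Prss54, 1.30% for Prss37, 1.498% for Prss52 and 1.57% for Prss51. For the 10 spermatid markers it was 1.27% to 1.996%. Several of these shares rose without spermatid replicate 1. The markers then lay between 1.25% and 3.73%, Prss55 was at 1.28%, Prss51 at 2.35% and Prss58 at 9.13%. Prss54 at 1.11% and the markers Spaca1 at 1.25% and Acrv1 at 1.38% did not rise. The part of spermatid RNA in the spermatocyte libraries in these values was not tested. Prss46 and Prss58 were at 5.67% each, above the range of the markers with and without that replicate.

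Spermatid replicate 1 differed from replicates 2 and 3 in these genes. The log2 ratio of its value to the mean of the other spermatid libraries was 1.502 for Prss58, 1.32 for Prss51, 0.94 for Prss52, 0.92 for Prss37 and 0.79 for Prss55. Over all tested genes the median of this ratio was 0.01, and over the spermatid markers it was 1.34, with Prm2 at 2.05. Other members higher in spermatids lacked this difference, for example Prss46 at 0.02 and Prss54 at -0.12. Prss50 went the other way at -1.23 and Prss53 at -0.50. The 15 tested markers of myoid, endothelial and blood cells had a median of -0.18 and ranged from -1.94 to 1.92, with Csf1r at -1.84 and Lyz2 at -1.57. The part of the make-up of replicate 1 in these values was not tested, and without it the 13 members called higher were all still called.

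**Figure D2:**
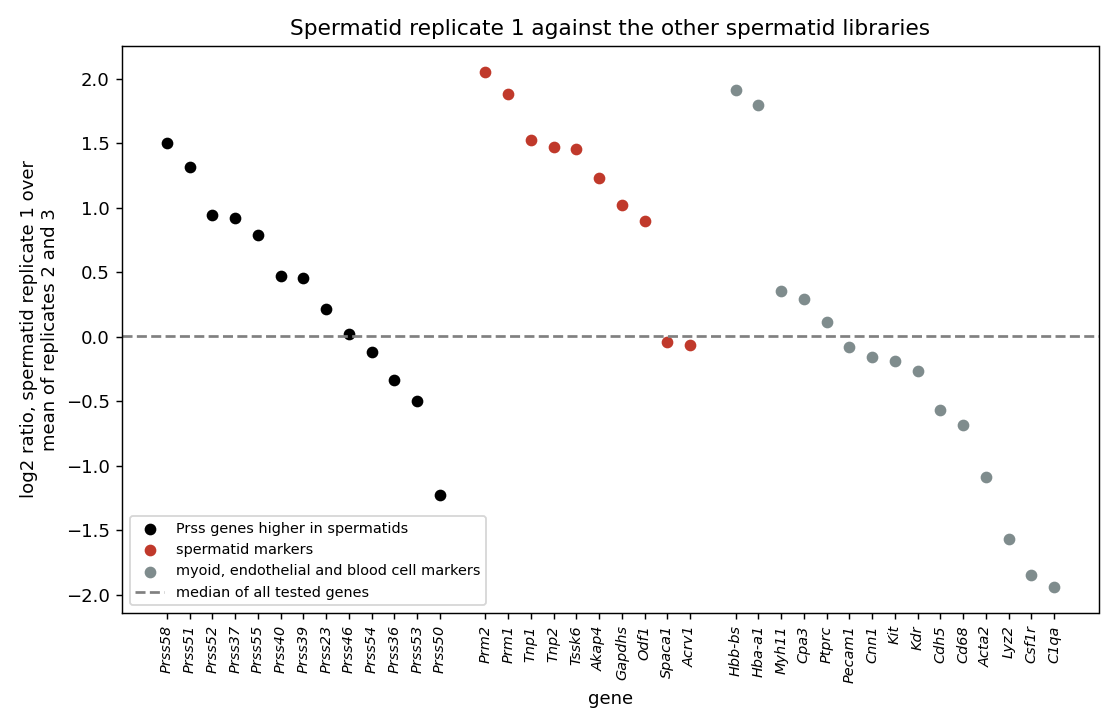
Log2 ratio of spermatid replicate 1 to the mean of spermatid replicates 2 and 3 for the 13 Prss genes higher in spermatids (black), 10 spermatid markers (red) and the tested myoid, endothelial and blood cell markers (grey). Prss58, Prss51, Prss52, Prss37 and Prss55 lie between 0.79 and 1.502, Prm2 at 2.05 and Prss50 at -1.23.

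A cluster of 6 genes on chromosome 9 held the clearest contrast within the family. Prss42, Prss44, Prss43, Prss45, Prss46 and Prss50 follow each other on the plus strand between 110798166 and 110864628 (mm10), and no other row of the table lies among them. Toward spermatids, Prss42, Prss44 and Prss43 at the start of the cluster were lower, Prss45 did not pass the threshold, and Prss46 and Prss50 at its end were higher. None of these 6 genes shares a window of 50 bases with a transcript of another gene in GENCODE.

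Prss42 and Prss43 encode membrane-anchored testis proteases also called TESSP-2 and TESSP-3, which were linked to meiosis in cultured mouse testis. Prss43 had normalized counts of 1860.5, 1715 and 2030.0 in spermatids, against 6686 and 6324 in spermatocytes. All spermatid libraries were below both spermatocyte libraries, with a log2 fold change of -1.80 ± 0.11 (SE, limma adjusted p = 9.6e-06). Prss42 was at 2505, 2112 and 2404 in spermatids and 4784 and 4438 in spermatocytes, with a log2 fold change of -0.98 ± 0.11 (SE, limma adjusted p = 0.00019). Prss44, also called TESSP-4, which male mice can lack and remain fertile, was at 662, 579.8 and 681 in spermatids and 2467 and 2307 in spermatocytes. Its log2 fold change of -1.90 ± 0.12 (SE, limma adjusted p = 1.3e-05) was the lowest of the family, although after quantile normalization Prss43 (-2.45) was below Prss44 (-2.42). The median of spermatocyte markers was -1.72. Prss43 and Prss44 were the 2 members called at least 2-fold lower, 2 of 27 or 7.41%, against 28.7% of all genes.

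Prss45 was at 3217, 2606 and 2887 in spermatids and 3359 and 3371 in spermatocytes. The groups did not overlap, but the difference of -0.22 ± 0.11 on the log2 scale (SE) missed the threshold (limma adjusted p = 0.12). Without spermatid replicate 1 it passed, at -0.29 (limma adjusted p = 0.021). Prss46, another testis gene that male mice can lack without losing fertility, was at 11164, 10976 and 11077 in spermatids and 659 and 597 in spermatocytes. Its spermatid libraries were the closest of any abundant member, and the log2 fold change was 4.14 ± 0.09 (SE, limma adjusted p = 3.7e-07). Prss50, also called testes-specific protease 50, was at 361, 1153 and 542 in spermatids and 102 and 97.2 in spermatocytes. Its spermatid libraries differed by several fold, and the log2 fold change of 2.60 ± 0.45 (SE, limma adjusted p = 0.0016) was 2.97 without spermatid replicate 1 and 2.14 without replicate 2.

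**Figure D3:**
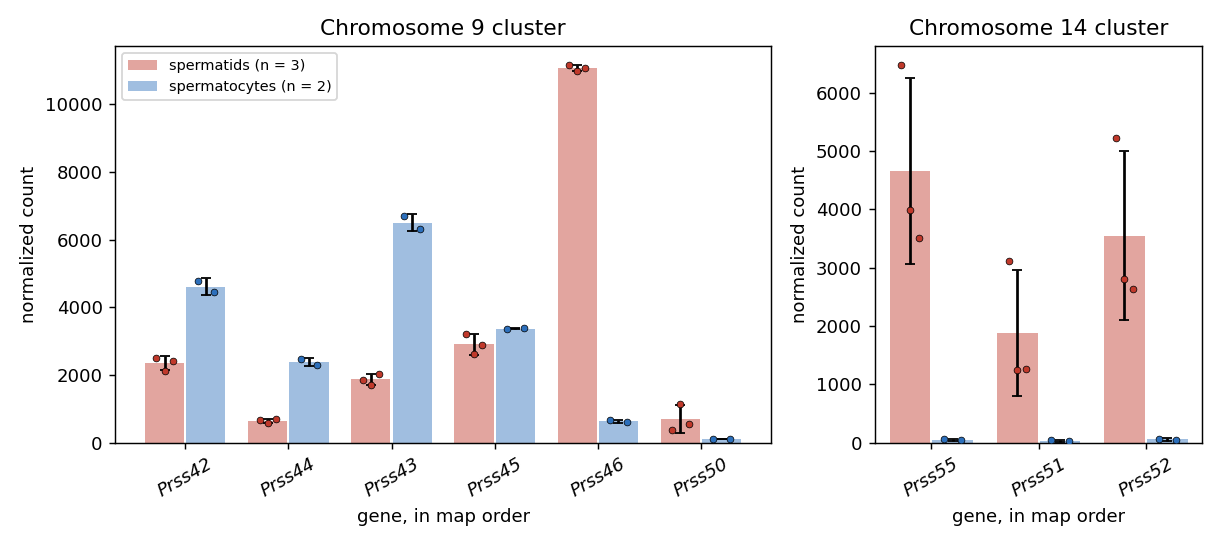
Normalized counts of the clustered genes on chromosome 9 (left) and chromosome 14 (right) in map order, with spermatids in red to the left of spermatocytes in blue; bars are means, whiskers SD and points single libraries. On chromosome 9, Prss43 averaged 1868 in spermatids and 6505 in spermatocytes and Prss46 11072 in spermatids and 628 in spermatocytes, while the 3 genes on chromosome 14 were at 18.1 to 66.8 in spermatocytes.

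Per kilobase of annotated exon, Prss46 was the cluster's most abundant gene in spermatids, at 8226 normalized counts per kilobase, against 467 in spermatocytes. In spermatocytes Prss42, Prss43 and Prss45 were close to each other, at 2911, 2795 and 2725 normalized counts per kilobase, and in spermatids they were at 1478, 803 and 2351. Prss44 had 182 in spermatids and 676 in spermatocytes on this scale.

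The DNA before the start sites of these genes is shown because neighbours on the same strand differed in direction. The sequences are the 250 bases before the RefSeq start of each gene (GRCm38.p6, which has the coordinates of mm10), 5′ to 3′ on the gene's strand. Those of the cluster are chr9:110797935-110798184 for Prss42, chr9:110834338-110834587 for Prss45, chr9:110844256-110844505 for Prss46 and chr9:110857714-110857963 for Prss50, all on the plus strand. For comparison the regions of Prss37 (chr6:40519509-40519758, minus strand) and Prss39 (chr1:34498162-34498411, plus strand) are given. Capitals mark the MYB core AACTG and the E box CACGTG on either strand.
Prss42: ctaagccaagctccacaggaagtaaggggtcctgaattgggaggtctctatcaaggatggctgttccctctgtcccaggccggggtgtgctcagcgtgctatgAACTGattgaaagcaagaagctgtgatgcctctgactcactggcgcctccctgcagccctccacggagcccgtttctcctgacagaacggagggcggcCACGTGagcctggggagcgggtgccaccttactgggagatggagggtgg
Prss45: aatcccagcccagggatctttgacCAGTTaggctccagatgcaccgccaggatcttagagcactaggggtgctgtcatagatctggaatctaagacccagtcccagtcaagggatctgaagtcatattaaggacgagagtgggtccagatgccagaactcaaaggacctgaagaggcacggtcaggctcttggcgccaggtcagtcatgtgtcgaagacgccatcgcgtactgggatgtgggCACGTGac
Prss46: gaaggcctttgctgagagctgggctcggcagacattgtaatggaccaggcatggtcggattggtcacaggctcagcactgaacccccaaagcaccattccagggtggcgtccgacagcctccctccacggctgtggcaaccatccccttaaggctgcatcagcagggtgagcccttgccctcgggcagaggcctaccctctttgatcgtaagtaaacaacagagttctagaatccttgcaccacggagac
Prss50: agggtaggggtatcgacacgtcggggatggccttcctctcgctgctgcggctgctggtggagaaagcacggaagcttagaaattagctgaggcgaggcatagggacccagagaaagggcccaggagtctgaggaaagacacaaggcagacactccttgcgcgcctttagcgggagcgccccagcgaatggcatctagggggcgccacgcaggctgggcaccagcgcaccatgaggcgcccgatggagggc
Prss37: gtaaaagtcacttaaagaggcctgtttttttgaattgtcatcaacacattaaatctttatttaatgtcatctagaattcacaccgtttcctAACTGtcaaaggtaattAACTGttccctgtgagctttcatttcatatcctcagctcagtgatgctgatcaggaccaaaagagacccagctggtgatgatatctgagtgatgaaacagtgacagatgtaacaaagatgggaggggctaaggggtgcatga
Prss39: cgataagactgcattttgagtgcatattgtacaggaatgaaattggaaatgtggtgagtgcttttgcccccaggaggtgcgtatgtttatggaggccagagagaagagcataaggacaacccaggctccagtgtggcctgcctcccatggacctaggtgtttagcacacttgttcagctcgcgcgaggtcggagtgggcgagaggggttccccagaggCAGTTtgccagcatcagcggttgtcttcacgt

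Within the cluster, the regions of Prss42 and Prss45 each hold 1 E box and 1 MYB core, and those of Prss46 and Prss50 hold neither. The E box starts 49 bases before the start site in Prss42 and 8 bases before it in Prss45. Prss37 holds 2 MYB cores and Prss39 holds 1. Regions of 28 members were found in RefSeq, with 7 listed starts for Prss23 and 2 for Prss50, of which the first listed was used, as for all genes below. The others were Prss8, Prss16, Prss22, Prss43, Prss44, Prss48, Prss51, Prss52, Prss55 and Prss57. Of the 28, 14 held AACTG, against 39.1% of 27025 genes, and 4 held CACGTG (Prss38, Prss40, Prss42 and Prss45), against 6.05%. The cyclic AMP response element TGACGTCA was in 0 of 28, against 1.62% of all genes, and its shorter core TGACG in 4 of 28, against 17.9%. With any listed start counted, the shorter core was in 5 of 28, Prss23 added, against 19.8%. The TATA box TATAAA was in 5, which were the trypsinogen genes Prss1, Prss2 and Prss3 and the uterine Prss28 and Prss29, against 13.0% of all genes. All motifs were searched on both strands, and the shorter core lies within the full response element. The MYB core (at first searched with a further C before it), the E box and the length of the regions (at first longer) were settled only after these sequences had been read, so the matches in them were in view when the motifs were chosen. These matches are a description and say nothing of whether a factor binds.

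Prss21 encodes testisin, a membrane-anchored protease of germ cells and sperm that mouse sperm need to mature in the epididymis. Its level per kilobase of annotated exon was 3181 normalized counts in spermatids and 2991 in spermatocytes. Its normalized counts were nearly level, at 7834, 6592 and 6772 in spermatids and 6841 and 6445 in spermatocytes. The groups overlapped, and the log2 fold change was 0.09 ± 0.11 (SE, limma adjusted p = 0.48). Prss21 lies on chromosome 17 from 23868058 to 23873114 (plus strand), in a cluster of 7 members between 23833360 and 24045949. None of the 3 members tested there passed the threshold. Prss41, also called TESSP-1, was at 303 ± 26.7 (SD, n = 3) in spermatids and 298 ± 13.2 (SD, n = 2) in spermatocytes (limma adjusted p = 0.90). Prss33 was at 14.1 ± 6.54 in spermatids and 19.5 ± 4.70 in spermatocytes (limma adjusted p = 0.36). Prss32, Prss27, Prss30 and Prss22 were under the filter, the last of these with 0 reads like Prss30.

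**Figure D4:**
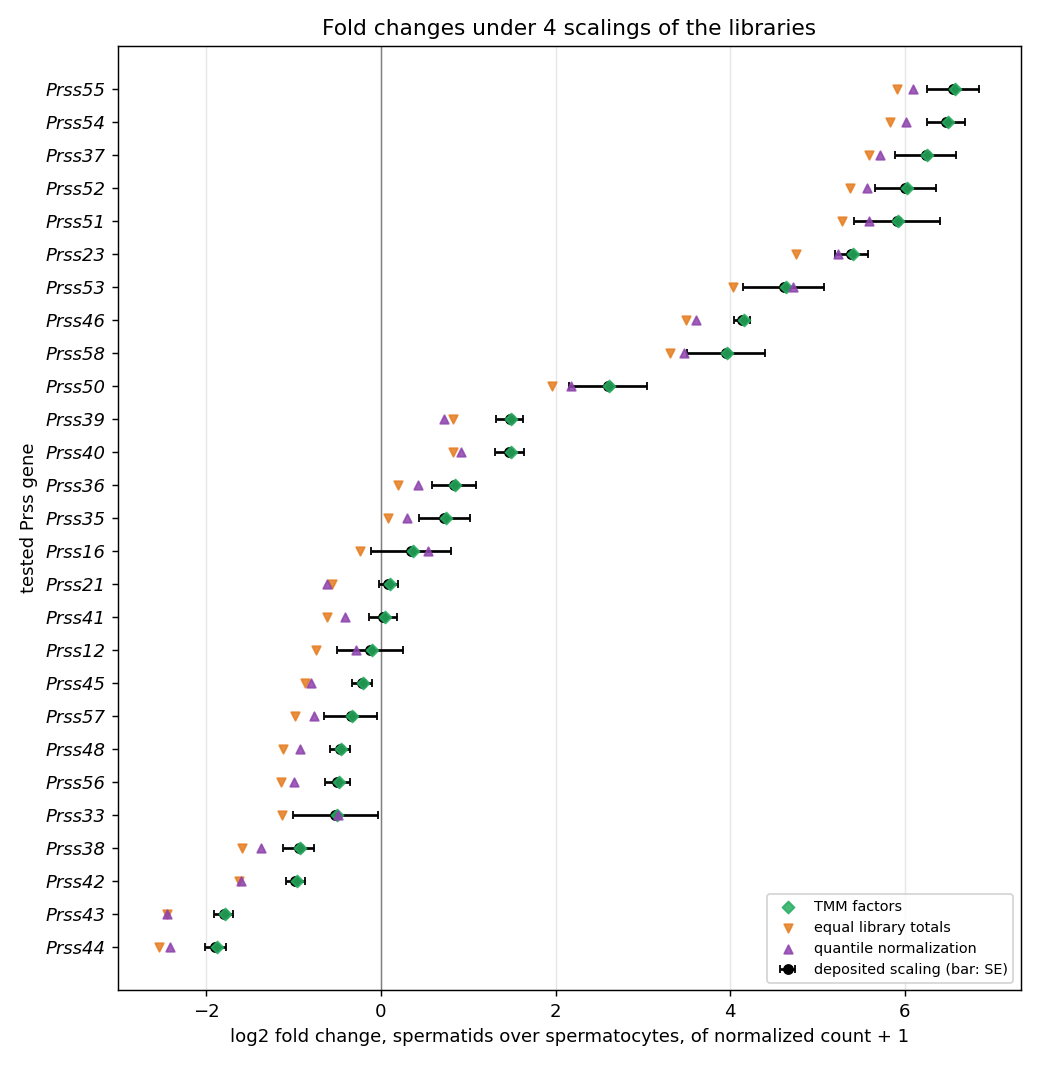
Log2 fold change, spermatids over spermatocytes, of the 27 tested Prss genes with the deposited scaling (black, bars are SE) and after 3 other scalings of the libraries. Equal totals and quantile normalization moved 27 and 24 of the 27 genes to the left and took Prss21 from 0.09 to -0.56 and -0.62.

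The sign of small differences depends on the scaling, since a scaling can move most genes in the same direction. For Prss21, with libraries rescaled to equal totals the difference was -0.56 on the log2 scale (limma adjusted p = 0.00076), and with quantile-normalized libraries it was -0.62 (limma adjusted p = 0.00032). Over all tested genes these scalings moved the median from 0.07 to -0.57 and -0.39, so Prss21 lay close to the median of all genes as deposited and under equal totals. Prss41 turned to -0.62 and -0.41, and both Prss45 and Prss57 were called lower under both. Under equal totals and under quantile normalization, 12 members were higher and 10 lower, against 13 and 6 as deposited. TMM factors gave 13 and 6. Over all genes, 8645 were higher and 14016 lower under equal totals and 9577 higher and 13205 lower under quantile normalization, against 11512 higher and 10359 lower as deposited.

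The members lower in spermatids outside chromosome 9 changed less than Prss43 and Prss44, but Prss38 was close to Prss42 (-0.98 ± 0.11 SE). Prss38, also called marapsin 2, was at 236, 224 and 183 in spermatids and 406 and 414 in spermatocytes, a log2 fold change of -0.94 ± 0.17 (SE, limma adjusted p = 0.0022). Prss48 was at 738, 751 and 679 in spermatids and 992 and 1011 in spermatocytes, a log2 fold change of -0.47 ± 0.11 (SE, limma adjusted p = 0.0077). It missed the threshold without spermatocyte replicate 2 (limma adjusted p = 0.051). Prss56, known from the eye, where its loss shortens the eyeball in mice, was at 1153, 1298 and 1535 in spermatids and 1905 and 1826 in spermatocytes. Its log2 fold change of -0.50 ± 0.14 (SE, limma adjusted p = 0.015) missed the threshold without spermatocyte replicate 1 (limma adjusted p = 0.091), without spermatocyte replicate 2 (0.067) and with no filter on low values (0.055).

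Sertoli markers differed between the spermatocyte libraries, with a median log2 ratio of replicate 1 to replicate 2 of -0.39. For the 6 members lower in spermatids this ratio was -0.03 to 0.11, and over all tested genes its median was 0.03. The part of Sertoli cell RNA in the levels of these 6 genes was not tested.

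Prss23, a secreted protease of many tissues, was at 760.2 ± 68.3 (SD, n = 3) in spermatids, against 17.2 ± 1.57 (SD, n = 2) in spermatocytes, a log2 fold change of 5.39 ± 0.19 (SE, limma adjusted p = 1.0e-06). Its row contains that of 1700019G06Rik, which was also high in spermatids, at 561, 332 and 246 in spermatids against 11.8 and 6.03 in spermatocytes. Of the windows of Prss23, 21.2% are shared with other genes, mostly with an antisense gene, and without the strand setting of the counting these reads cannot be told apart. Markers of myoid, endothelial and blood cells also had larger sums in spermatids, at 2588 to 4473 against 737.6 to 760.5 in spermatocytes. The part of RNA of such cells in the level of Prss23 was not tested. Prss53 and Prss36 encode polyserases, proteins with several protease domains in a row. Prss53 was at 170 ± 48.2 (SD, n = 3) in spermatids and 6.52 ± 4.48 (SD, n = 2) in spermatocytes (log2 fold change 4.62 ± 0.46 SE, limma adjusted p = 0.00011). This fold change was 5.26 without spermatocyte replicate 1 and 3.97 without replicate 2. Of its windows 79.5% are shared with other genes, most of all with Gm21974, and its row overlaps that of Zfp646, so its level is uncertain. Prss36 was at 153 ± 20.2 in spermatids and 86.2 ± 21.3 in spermatocytes (log2 fold change 0.83 ± 0.25 SE, limma adjusted p = 0.020). Its call ended without spermatid replicate 2 (0.061), without spermatid replicate 3 (0.060), without spermatocyte replicate 1 (0.12), under equal totals (0.57) and under quantile normalization (0.15), each a limma adjusted p.

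Rows of 8 tested members overlap another row in position, Prss36, Prss48, Prss52 and Prss58 besides those described above and Prss57, so some of their reads may belong to the other row. The remaining tested members did not pass the threshold. Prss35 was at 355 ± 112 in spermatids and 210.3 ± 49.9 in spermatocytes (limma adjusted p = 0.055), and passed without spermatid replicate 1 (0.021), with edgeR (adjusted p = 0.046) and with DESeq2 (adjusted p = 0.031). Prss57, a neutrophil protease, was at 80.6 ± 20.7 in spermatids and 100.7 ± 11.5 in spermatocytes (limma adjusted p = 0.32), and 38.4% of its windows are shared with other genes, mostly Fstl3. Prss12, the neurotrypsin gene of the brain, was at 25.9 ± 5.03 in spermatids and 28.9 ± 10.4 in spermatocytes (limma adjusted p = 0.78). Prss16, the protease of the thymus, was at 14.3 ± 4.46 in spermatids and 11.02 ± 4.21 in spermatocytes (limma adjusted p = 0.51).

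The other 11 members were under the filter on low values. No read was found in any library for Prss1 and Prss3, which are trypsinogens, for Prss28 and Prss29, the implantation proteases of the uterus, and for Prss22 and Prss30. A count of 0 allows up to 3 reads, or 2.01 to 4.65 normalized counts per library. Prss34, a protease of mast cells and basophils, had 1 read in spermatids and 2 in spermatocytes, and Prss27 had 2 reads in spermatids and 0 in spermatocytes. Prss32 had 15 reads in spermatids and 17 in spermatocytes, and Prss8, the prostasin gene, had 32 in spermatids and 12 in spermatocytes. Prss2, also a trypsinogen gene, had 25 reads in spermatids and 0 in spermatocytes. With the spermatocyte libraries set to 3 reads each, the spermatid mean of Prss2 was 3.54-fold above that level, or 2.28-fold without spermatid replicate 2. This mean rests on 5, 16 and 4 reads, and their own counting error is not in these ratios. The row of Prss2 overlaps that of Trbv1 // Trbv13-2, and 7.83% of its windows are shared with other genes, most of all with Try10. Its count is therefore uncertain. For Prss1 and Prss3, 54.9% and 66.1% of the windows are shared with other trypsinogen-like genes, so their counts are uncertain.

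Proteases of the same fold outside the family moved in both directions. Of 41 tested genes on a list of other trypsin-fold serine proteases, 19 were higher in spermatids and 12 lower. Over all tested genes 40.6% were higher and 36.5% lower, so such calls in both directions are common here. The median log2 fold change of the list was 0.59, against 0.07 for all tested genes. Acr, the gene of acrosin, the main acrosomal protease, rose to 19125 ± 1207 (SD, n = 3) in spermatids, against 8240 ± 202 (SD, n = 2) in spermatocytes (log2 fold change 1.21 ± 0.09 SE, limma adjusted p = 2.7e-05). Gzmn, the granzyme of the testis, was at 3845 ± 113 in spermatids and 51.6 ± 27.5 in spermatocytes (limma adjusted p = 3.7e-06). Tmprss12, a testis protease that sperm need for oviduct migration, was lower, at 1028 ± 45.2 in spermatids and 3075 ± 75.9 in spermatocytes (limma adjusted p = 1.3e-05). Tmprss11f had 120 ± 35.4 in spermatids and 0 reads in spermatocytes. On a list of trypsinogens, other digestive proteases of the pancreas and mast cell proteases, 6 of 20 genes passed the filter. Of these, 2 were higher and 1 lower. Not all genes of this list have the trypsin fold, as it also holds carboxypeptidases. Try5 was higher, at 498 ± 13.6 in spermatids and 7.66 ± 1.35 in spermatocytes, and Cela2a was at 35.0 ± 28.8 in spermatids and 10.3 ± 2.44 in spermatocytes (limma adjusted p = 0.081).

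Subtilisin-like convertases, which activate precursors by another fold, were higher in spermatids for 4 of 10 genes and lower for 3 (median 0.63). The shares over all tested genes were 40.6% higher and 36.5% lower. Pcsk4, the convertase of germ cells, rose to 25235 ± 2430 in spermatids, against 11423 ± 17.4 in spermatocytes (limma adjusted p = 7.3e-05). Tpp2, a peptidase of this fold that trims peptides in the cytosol, was higher too, at 8885 ± 891 in spermatids against 5903 ± 173 in spermatocytes (limma adjusted p = 0.0023), and Pcsk7 lower, at 1343 ± 41.4 in spermatids against 2326 ± 100.2 in spermatocytes (limma adjusted p = 0.00030). Pcsk1 had 204 ± 57.4 in spermatids and 0 reads in spermatocytes.

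A list of serine protease inhibitors also held family members, such as Serpina7, that are not inhibitors of a protease. Of its 43 tested genes, 18 were higher in spermatids and 13 lower as deposited (median 0.42), against 40.6% and 36.5% of all tested genes. Under equal totals 16 of them were higher and 18 lower. Spink2, the one with the highest mean, which restrains acrosin in the acrosome, was at 37505 ± 4015 in spermatids and 32390 ± 4013 in spermatocytes, without passing the threshold (limma adjusted p = 0.16). Serpinb6a was level at 9894 ± 1762 in spermatids and 9797 ± 435 in spermatocytes (limma adjusted p = 0.997). Spint2, an inhibitor anchored in the membrane, was lower, at 4111 ± 459 in spermatids and 10457 ± 17.4 in spermatocytes (limma adjusted p = 5.2e-05). Serpina7 had 144 ± 14.7 in spermatids and 0 reads in spermatocytes.

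Genes for the maturation of sperm surface proteins and for partners of acrosin included ADAM3, the protein whose maturation needs Prss37 and Prss55 in mice. On this list 20 of 33 tested genes were higher in spermatids and 4 lower as deposited (median 0.67). Over all tested genes 40.6% were higher and 36.5% lower as deposited. Under equal totals 16 genes of the list were higher and 14 lower, and likewise under quantile normalization. Adam3 was at 145352 ± 26566 in spermatids and 90262 ± 7587 in spermatocytes (log2 fold change 0.67 ± 0.16 SE, limma adjusted p = 0.0063), and Adam5 at 161032 ± 24652 in spermatids and 107094 ± 5434 in spermatocytes (limma adjusted p = 0.0069). The chaperone gene Clgn, which folds ADAM proteins, was at 100217 ± 10145 in spermatids and 92841 ± 6821 in spermatocytes (limma adjusted p = 0.41). Hyal5, a hyaluronidase of sperm, had the largest change on this list, at 13405 ± 888 in spermatids against 127 ± 17.9 in spermatocytes (log2 fold change 6.71 ± 0.12 SE, limma adjusted p = 3.7e-07).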

How the data were processed

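Libraries of polyadenylated RNA were made with a stranded kit, per the labels' protocols. The authors deposited a signal per gene, normalized with DESeq, per the file headers. STAR 2.4.0, FastQC, Picard, SAMtools and mm10 are named, with no role, per the submitters' processing notes. For the counting program, its strand setting and its handling of multiply matching reads, the sources used here give nothing.

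All values were whole multiples of the smallest value of their column (100% within 0.001), so reads were recovered, also for spermatid replicate 2, where 1 read is worth nearly 1 unit. Genes with a mean of at least 10 were tested with limma 3.58.1 (R 4.3.3, eBayes with trend) on log2(value + 1), over all 28370 such genes. Alternatives were edgeR 4.0.16 and DESeq2 1.42.0 on recovered reads, other pseudocounts, filters and scalings, eBayes without a trend, and leaving out each library. On recovered reads edgeR called 21939 genes, against 21871 with limma. The limma step was tested on simulated data. The floor of 3 reads covers counting error alone.

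The labelled cell type set the group of each sample, and accession order only its replicate number. The members, lists and the rule for named genes were chosen with earlier results of these data known. All members are named, with values in every sample for those with a mean of at least 1000 in either group or lower in spermatids. From each list the 3 most abundant tested genes (2 for marker lists and trypsinogens) and, outside those lists, the one with the largest called change are named. Marker lists for spermatogonia (led by Dmrtb1 and Id4; 10 tested, 4 higher and 2 lower in spermatids) and epithelium (led by Epcam and Krt8; 5 tested, 2 higher and 1 lower) were also counted. Neighbouring genes were named after their values were seen, and shares without a replicate for the markers and Prss2 and motif shares by gene were added after seeing the data. Exon lengths, strands and 50-base windows came from GENCODE vM21, and a window counts as shared when it is identical on either strand. Start regions came from RefSeq. Summaries used Python 3.11.15 with pandas 2.3.3, numpy 2.4.6 and matplotlib 3.10.9.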

Additional observations from a re-analysis of the deposited data

How the results depend on the processing

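Of 27 tested members, 17 kept their direction and their side of the threshold under all 15 alternatives in which they could be tested. Under the stricter filter 4 low members were not tested. Among the 17 were Prss42, Prss43, Prss44 and all 8 members at least 16-fold higher in spermatids as deposited. That size did not hold under every alternative. The log2 fold change of Prss46 was 3.49 under equal totals and 3.61 after quantile normalization, and that of Prss53 was 3.95 with a pseudocount of 5. Members lower in spermatids numbered 10 with equal library totals and 10 after quantile normalization, against 6 as deposited. Genes of the sperm surface list lower in spermatids numbered 14 under each, against 4. Over all tested genes 14016 and 13205 were lower under these scalings, against 10359 as deposited. Why the normalized totals of the libraries differ was not tested. Requiring a mean of at least 100 left fewer genes to test, with 10 trypsin-fold proteases higher and 6 lower. On the inhibitor list 6 genes were then higher and 8 lower. Over all 17295 genes tested in this setting, 7957 were higher and 6029 lower. Leaving out each replicate gave 12 to 14 members higher and 4 to 7 lower. The sign turned only for members not past the threshold as deposited. Equal totals moved all 27 members down and quantile normalization 24. The median of all tested genes moved from 0.07 to -0.57 and -0.39 under these scalings. The part of this general shift in the turns of members just above 0 was not tested. With equal totals Prss16 (-0.24), Prss21 (-0.56) and Prss41 (-0.62) turned, and after quantile normalization Prss21 (-0.62) and Prss41 (-0.41). Prss16 moved up to 0.54 after quantile normalization. Leaving out each replicate gave log2 fold changes of -0.016 to 0.71 for Prss16, -0.022 to 0.098 for Prss41 and -0.48 to 0.24 for Prss12. With 1 spermatocyte library left, that library is assumed to vary like the spermatids. No paired analysis was possible because the labels give the groups no shared replicate numbers.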
